A study of Mus musculus with 4 samples.

Results

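The Ms4a genes (membrane-spanning 4-domains, subfamily A) encode small proteins that cross the membrane 4 times, and they lie side by side on mouse chromosome 19. Here 9 members of the family, taken from a given list, were followed across the cell classes of bone marrow: Ms4a1, Ms4a2, Ms4a3, Ms4a4b, Ms4a4c, Ms4a6b, Ms4a6c, Ms4a6d and Ms4a7. All 9 were found by symbol among the 31053 genes of the count matrix, which holds 19 genes whose symbol starts with Ms4a. The series names trabecular bone, and its tissue label gives both ends of the tibia (proximal and distal). Cells were freed with proteases and read by droplet single-cell RNA sequencing on the 10x Genomics system. The single group consisted of mice aged 8 weeks that carried Col10a1Cre, the Rosa26-Tdtomato reporter, Irx3 +/Δ and Irx5 +/-, which the labels call the Irx3/5 heterozygous control, and that were given no PTH (parathyroid hormone). Col10a1 is a gene of hypertrophic chondrocytes, so this Cre acts in that lineage, and every cell measured came from an animal with both heterozygous alleles. The 4 sample records were pooled in 1 matrix, and the labels do not say whether they are 4 animals.

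Several Ms4a proteins are known as markers or receptor subunits of single blood lineages. Ms4a1 is CD20 of the B-cell surface, Ms4a2 is the beta chain of the high-affinity IgE receptor of mast cells and basophils, and Ms4a3 is known as a gene of granulocyte and monocyte progenitors. Ms4a4b is known from T cells, and the Ms4a4c, Ms4a6 and Ms4a7 genes are known mainly from monocytes and macrophages.

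The matrix held 90273806 unique molecular identifiers (UMIs, each standing for 1 captured RNA molecule) in 15014 barcodes, with 500 to 80413 UMIs per barcode and a median of 3812. After filtering, 10485 cells remained, with a median of 4855 UMIs. Of these, 9659 (92.1%) fell into 19 classes named from marker genes, and 826 stayed in 10 unnamed clusters. No Ms4a gene took part in the clustering or in the naming, and a name ending in "-like" stands for the markers that a cluster showed. The kept cells were mostly blood cells: 1502 were erythroid-like and 46 osteoblast-like, although the source is labelled as bone. All values come from 1 library without replicates, so no test was possible. Levels are given as CPM, the UMIs of a gene divided by all UMIs of a class and scaled to the usual common total, and intervals in brackets are exact 95% intervals that cover counting error only. Erythroid-like cells, which are not known to use these genes, stand beside each share of cells as the background of free RNA, and their median depth was 6430 UMIs.

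The 9 genes span chromosome 19 from Ms4a1 (chr19:11249675-11266241, minus strand) to Ms4a3 (chr19:11629496-11640851, minus strand) on build GRCm38, per the GENCODE M21 annotation. Between them, in order, lie Ms4a7 (chr19:11321039-11336146, minus), Ms4a4c (chr19:11404770-11427246, plus), Ms4a4b (chr19:11443553-11467055, plus), Ms4a6c (chr19:11469366-11482192, plus), Ms4a6b (chr19:11516512-11531256, plus), Ms4a6d (chr19:11586604-11604849, minus) and Ms4a2 (chr19:11615523-11623719, minus). All are annotated as protein-coding.

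The Ms4a4 and the Ms4a6 pair of genes each share sequence before their RefSeq starts, and their levels are compared further on. The 250 bases before each RefSeq start (GRCm38.p6) are therefore shown. Capitals mark the stretch that aligned best with the partner gene, and each line runs 5′ to 3′ on the gene's own strand. The windows are chr19:11443308-11443557 for Ms4a4b and chr19:11407411-11407660 for Ms4a4c, both on the plus strand. RefSeq and GENCODE M21 differ in the start of Ms4a4c. Its window lies inside the gene as GENCODE places it (chr19:11404770-11427246).

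Ms4a4b: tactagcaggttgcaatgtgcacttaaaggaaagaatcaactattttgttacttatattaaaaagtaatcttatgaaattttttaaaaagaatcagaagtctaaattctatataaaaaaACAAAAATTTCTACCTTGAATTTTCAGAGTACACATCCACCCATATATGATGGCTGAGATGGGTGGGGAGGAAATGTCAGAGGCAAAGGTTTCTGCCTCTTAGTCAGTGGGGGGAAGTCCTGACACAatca
Ms4a4c: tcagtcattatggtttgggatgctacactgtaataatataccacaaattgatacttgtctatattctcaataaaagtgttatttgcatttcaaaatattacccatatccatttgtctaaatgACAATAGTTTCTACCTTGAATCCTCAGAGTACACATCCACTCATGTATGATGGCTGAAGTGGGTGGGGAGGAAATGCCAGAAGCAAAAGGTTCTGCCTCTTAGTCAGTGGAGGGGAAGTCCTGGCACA

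The Ms4a6 pair is shown in the same way. Its windows are chr19:11518309-11518558 for Ms4a6b and chr19:11469118-11469367 for Ms4a6c, both on the plus strand. The Ms4a6b window likewise lies inside the gene as GENCODE places it (chr19:11516512-11531256).

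Ms4a6b: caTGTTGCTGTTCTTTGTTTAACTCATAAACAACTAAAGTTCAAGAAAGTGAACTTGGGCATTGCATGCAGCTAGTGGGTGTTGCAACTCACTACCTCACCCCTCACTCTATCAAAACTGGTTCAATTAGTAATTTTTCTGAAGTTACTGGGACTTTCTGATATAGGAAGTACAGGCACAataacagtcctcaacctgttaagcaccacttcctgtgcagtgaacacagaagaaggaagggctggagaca
Ms4a6c: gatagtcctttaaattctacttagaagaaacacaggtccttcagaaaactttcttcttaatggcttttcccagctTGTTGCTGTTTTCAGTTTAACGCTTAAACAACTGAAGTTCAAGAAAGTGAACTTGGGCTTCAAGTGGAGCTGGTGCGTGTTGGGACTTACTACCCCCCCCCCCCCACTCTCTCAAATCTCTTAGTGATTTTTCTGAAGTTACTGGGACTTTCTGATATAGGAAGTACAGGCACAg

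RefSeq windows were at hand for 7 of the 9 genes, not for Ms4a1 and Ms4a6d. Ms4a4b and Ms4a4c had 114 identical bases in 128 aligned columns (89.1%), and the stretch ended 4 bases before the start of Ms4a4b and 0 bases before that of Ms4a4c. Ms4a6b and Ms4a6c had 152 identical bases in 182 columns (83.5%), with 1 run of 48 identical bases. That stretch ended 70 bases before the start of Ms4a6b and 1 base before that of Ms4a6c, so the shared sequence is displaced relative to the RefSeq starts. Their alignment scores were 208 for the Ms4a6 pair and 184 for the Ms4a4 pair, and the next of the 153 pairs of Ms4a windows scored 30. The letters GAGGAA are 1 form of the sites bound by PU.1 and other ETS factors, and other forms were not searched. GAGGAA occurred on the plus strand inside the shared stretch of the Ms4a4 pair. It lay 64 bases before the start of Ms4a4b and 61 before that of Ms4a4c. Searched on both strands, this motif was in 2 of the 7 windows and in 23.1% of 27018 promoter windows of the same length. TGTGGT (RUNX) was in the window of Ms4a4c alone, against 14.2% of all windows. TTGCNNAA (C/EBP), TGANTCA (AP-1) and CAGCTG (an E box) were in none of the 7, against 9.56%, 6.87% and 12.8% of all windows. The RUNX match of Ms4a4c, on the minus strand outside the shared stretch, did not overlap the GAGGAA match. A match describes the window only.

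The transcripts are related too, which limits how well reads can be told apart. Of the 31-base runs in the annotated protein-coding transcripts, Ms4a6b and Ms4a6c shared 266, which is 10% of those of Ms4a6b and 14.7% of those of Ms4a6c. Ms4a4b and Ms4a4c shared 226 (4.79% and 12.9%), Ms4a2 and Ms4a4b 110 (3.8% and 2.33%), Ms4a6b and Ms4a6d 83 (3.13% and 5.51%), and Ms4a6c and Ms4a6d 19 (1.05% and 1.26%). The other 31 of the 36 pairs shared none. No source used here says how reads that match 2 genes were counted, so values of these genes where a related gene is abundant are uncertain.

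A gene was called in a class where its CPM was at least 4 times that of all other kept cells, given 20 or more UMIs in total and 5 or more in the class. The genes other than Ms4a had shaped the clusters, so the share of all genes called is given as a background and not as a test. In classical monocyte-like cells, 4.34% of the 13615 genes with enough UMIs were called, and 4 of the 9 Ms4a genes were: Ms4a4c, Ms4a6b, Ms4a6c and Ms4a6d. In macrophage-like cells 6.02% of genes were called, and Ms4a6b, Ms4a6c, Ms4a6d and Ms4a7 were among them. T cell-like cells (background 4.83%) had 2 called, Ms4a4b and Ms4a6b, and non-classical monocyte-like cells (3.83%) had Ms4a6b and Ms4a6c. The other classes with a call had 1 each: Ms4a1 in immature or mature B-like cells (3.69%), Ms4a2 in basophil-like cells (3.00%), Ms4a3 in granulocyte-monocyte progenitor-like cells (1.45%) and Ms4a4b in NK cell-like cells (4.19%). Every one of the 9 genes was thus called in at least 1 named class. The share of all genes called in at least 1 class was not computed, so this count has no background. The 9 genes were also chosen with earlier results of these data known. The 11 remaining named classes, erythroid, osteoblast, osteoclast, mature neutrophil and small pre-B among them, had no call.

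**Figure D1:**
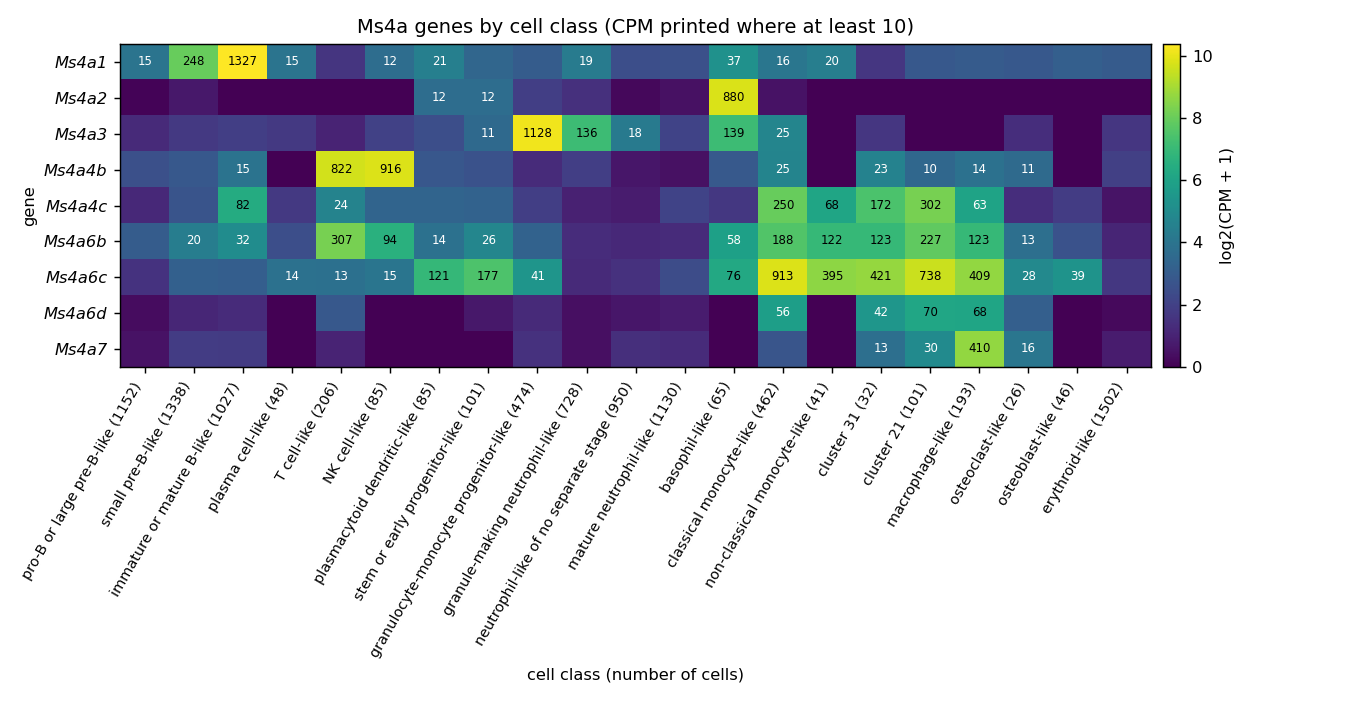
Heat map of 9 Ms4a genes (rows) over 19 named classes and the unnamed clusters 21 and 31 (columns, with cell numbers), coloured by log2(CPM + 1), with CPM printed where it is at least 10. Ms4a1, Ms4a2, Ms4a3 and Ms4a4b each have 1 to 3 bright classes, and the Ms4a4c and Ms4a6 genes spread over the monocyte and macrophage columns.

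Ms4a1, the CD20 gene, marked the late B-lineage classes. Its level was 1327 CPM (1290 to 1365) in immature or mature B-like cells and 26.1 CPM in all other kept cells, a ratio of 50.8 (48.1 to 53.7). Small pre-B-like cells had 248 CPM (231 to 265), so the level in immature or mature B-like cells was 5.36 times higher (4.98 to 5.77). Pro-B or large pre-B-like cells had 14.9 CPM (12.7 to 17.3) and plasma cell-like cells 14.8 CPM (7.90 to 25.4). The order along the lineage was therefore low in the proliferating precursors, intermediate in small pre-B-like cells, highest in immature or mature B-like cells and low again in plasma cell-like cells.

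The share of cells followed the level. A UMI of Ms4a1 was found in 895 of 1027 immature or mature B-like cells (87.1%), and in 65.6% after thinning each cell to 1000 UMIs. In small pre-B-like cells the share was 18.1%, and 12.9% after thinning. In erythroid-like cells it was 1.60%, and 0.470% after thinning. The small pre-B-like and B-like classes had similar median depths of 2419 and 2809 UMIs.

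Within the small pre-B-like class, cells with Ms4a1 differed from those without it in other stage genes, although all 3 groups had similar median depths of 2454, 2254 and 2355 UMIs. The groups are ranges of a count, not cell types: 1096 cells had no Ms4a1 UMI, 131 had 1 or 2, and 111 had 3 or more. Rag1, a subunit of the recombinase that rearranges the immunoglobulin genes, was at 959 CPM (923 to 995), 493 CPM (421 to 575) and 134 CPM (96.5 to 182) in these groups. Il2ra, the CD25 gene of small pre-B cells, was at 239 CPM (221 to 258), 114 CPM (80.4 to 156) and 62.3 CPM (37.5 to 97.3). Cd22, an inhibitory receptor of more mature B cells, went the other way, with 31.02 CPM (24.9 to 38.2), 86.7 CPM (58.1 to 125) and 161 CPM (119 to 212). Cells with more Ms4a1 thus had less Rag1 and Il2ra and more Cd22, and the intervals of the lowest and highest groups did not overlap for any of the 3 genes. Other genes read in these groups did not all follow. From the lowest to the highest group Ighd, the IgD heavy chain gene, went from 153 to 252 CPM and Cd79a, a B-cell receptor chain, from 1616 to 2147 CPM. The class II gene H2-Aa did not rise, at 94.5 CPM (83.5 to 106.5) and 68.8 CPM (42.6 to 105.2). Vpreb3 was at 2483 and 2413 CPM, and Fcer2a had 0 UMIs and 1 UMI.

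Inside the immature or mature B-like class the picture was not a simple gain of maturity genes with Ms4a1. The 584 cells with 3 or more Ms4a1 UMIs had 511 CPM of Ighd (482 to 541), against 783 CPM (694 to 880) in the 132 cells with none. Ighd encodes the IgD heavy chain of mature naive B cells. Fcer2a, the CD23 gene, was at 126 CPM (112 to 141) in the former and at 180 CPM (138 to 229) in the latter, and the class II gene H2-Aa at 1181 CPM (1137 to 1226) against 2839 CPM (2667 to 3020). Ighm, the IgM heavy chain, was at 5625 CPM (5529 to 5722) against 3799 CPM (3599 to 4007), and the proliferation gene Mki67 at 209 CPM (191 to 229) against 28.1 CPM (13.5 to 51.6). The intervals of the 2 groups did not overlap for Ighd, H2-Aa, Ighm and Mki67, and overlapped for Fcer2a. The 311 cells with 1 or 2 UMIs, at 975.3 CPM of Ighd and 2850 CPM of H2-Aa, were closer to the cells with none. Median depth was 3120 UMIs in the cells with 3 or more and 2577 in those with none, and its part in these differences was not tested.

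Of 12 genes for B-cell receptor components and neighbours of CD20 on the B-cell surface, 10 were called in immature or mature B-like cells. Their median log2 ratio was 2.50, against 0.25 over all genes tested, and 7 of the 12 had served as markers. Fcer2a stood 77.2 times above other cells (64.1 to 93.5), Cr2, the complement receptor CD21, 63.7 times (46.8 to 87.7), Fcmr, the IgM Fc receptor, 50.6 times (46.6 to 55.1) and Cd22 16.7 times (14.9 to 18.7). Each of these genes was a marker that named this class, so its ratio is no separate support.

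Ms4a1 also appeared in clusters that held transcripts of 2 lineages. The unnamed cluster 19 was led by globin genes, yet Cd79a, a B-cell receptor chain, was found in 152 of 160 cells, and Ms4a1 was at 124 CPM (107 to 142). In cluster 5, an erythroid-like cluster, Cd79a was found in 22 of 575 cells. Cluster 30, also unnamed, had 159 CPM of Ms4a1 (108 to 226), Cd79a at 1135 CPM and S100a8, a neutrophil gene, at 21790 CPM, against 405 CPM of S100a8 in the immature or mature B-like cluster. Cluster 22, 86 cells inside the granule-making neutrophil-like class, had 127 CPM of Ms4a1 and Cd79a in 82 cells, whereas cluster 7 of the same class had 1.03 CPM of Ms4a1. Without clusters 19, 22 and 30 the log2 ratio of Ms4a1 in immature or mature B-like cells was 5.95, against 5.67 with them. The Ms4a1 level also moved with the mitochondrial limit. At 5% mitochondrial UMIs the class of this name shrank to 262 cells, with 143 CPM and a ratio of 12.8 (11.2 to 14.7).

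Ms4a2, the beta chain of the IgE receptor, was a basophil gene here. The 65 basophil-like cells held 406 of its 497 UMIs (81.7%), at 880 CPM (796 to 970). All other kept cells had 1.27 CPM, a ratio of 695 (552 to 882). Under 6 alternative settings of the cell filters or the clustering the ratio was 308 to 400. The basophil-like level was then 848 to 876 CPM and that of other cells 2.14 to 2.78 CPM. The next units were cluster 15.4, led by the platelet genes Pf4 and Itga2b, with 30.9 CPM (16.9 to 51.8), plasmacytoid dendritic-like cells with 12.2 CPM (5.28 to 24.08) and stem or early progenitor-like cells with 11.9 CPM (7.38 to 18.2). Among these 3, neighbours in the order did not differ beyond counting error, and the UMIs of the last 2 units lay in 1 and 2 cells. Ms4a2 was also called in cluster 15.4, where 3.33% of all genes were called, but 4 of its 28 cells had a UMI and 1 of them held 10 of the 14 UMIs.

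A UMI of Ms4a2 was found in 54 of 65 basophil-like cells (83.1%, and 47.6% after thinning), and in 0 of 1502 erythroid-like cells, which allows up to 0.280 CPM at the limit of 3 counts. Of 11 genes of the IgE receptor and its signalling, 4 were called in basophil-like cells, and the list's median log2 ratio was 1.30, against 0.17 over all genes tested. Fcer1a, the IgE-binding chain of the same receptor and 1 of the naming markers, stood 3942 times above other cells (2273 to 7482). The adaptors Lat2 at 15.7 times (13.1 to 18.7), Lat at 9.90 times (6.44 to 14.6) and Gab2 at 8.59 times (6.29 to 11.5) were the other 3. Fcer1g, the gamma chain that the receptor shares with other Fc receptors, and Lyn, Syk, Btk, Lcp2, Plcg1 and Plcg2 were not called.

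Ms4a3 was highest where the primary granule enzymes are made and was far lower in later neutrophils. Granulocyte-monocyte progenitor-like cells had 1128 CPM (1106 to 1150), 45.3 times the level of all other kept cells (42.9 to 47.8), and held 86.7% of the gene's 11809 UMIs. Granule-making neutrophil-like cells had 136 CPM (128 to 144), neutrophil-like cells of no separate stage 18.4 CPM (15 to 22.4) and classical monocyte-like cells 25.3 CPM (21.1 to 30.2). Basophil-like cells, with 139 CPM (107 to 177), did not differ from granule-making neutrophil-like cells, since the interval of the ratio (0.782 to 1.32) held 1. In erythroid-like cells the level was 2.15 CPM.

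The clusters give the same order in finer steps. Cluster 18, led by Ctsg and Mpo, had 1410 CPM (1372 to 1450). Cluster 12, led by Fcnb and Elane, had 946 CPM (920 to 973). Among granule-making neutrophil-like clusters the level was 154 CPM (144 to 164) in cluster 7, led by Inhba and Chil3 with Ngp and Camp, and 60.2 CPM (47.4 to 75.5) in cluster 17, led by Ly6g. Cluster 2, of no separate stage, had 19.3 CPM (15.7 to 23.5), and mature neutrophil-like cluster 4 had 2.02 CPM (0.550 to 5.17).

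**Figure D2:**
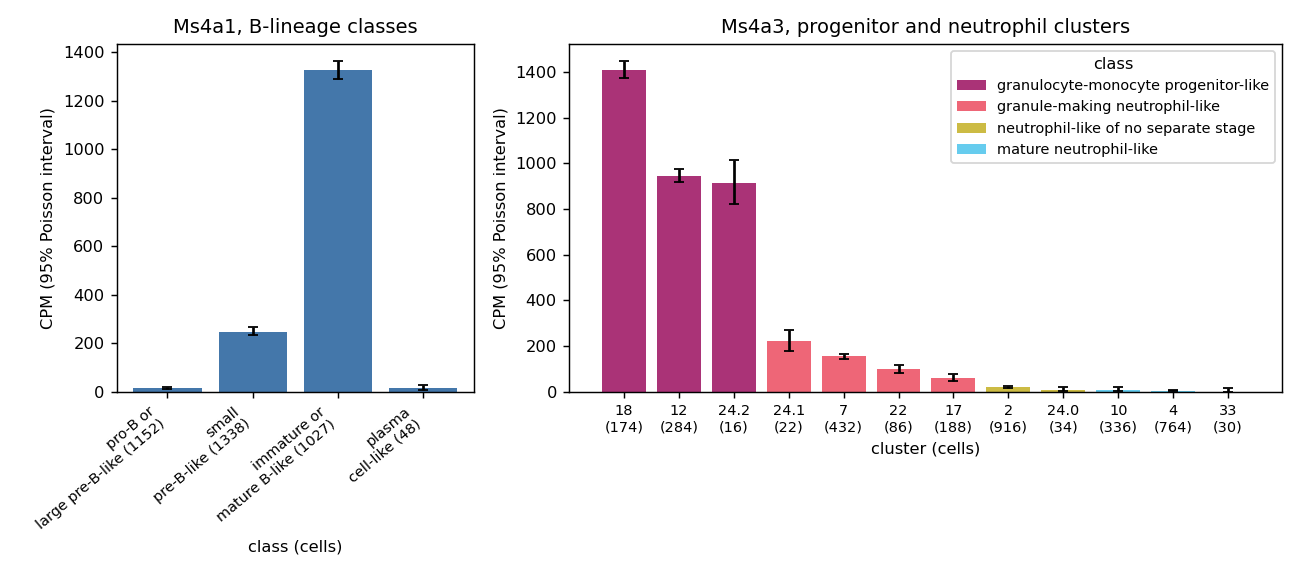
Ms4a1 over 4 B-lineage classes (left) and Ms4a3 over 12 progenitor and neutrophil clusters coloured by class (right), as CPM with 95% Poisson intervals, with cell numbers below each bar. Ms4a1 reaches 1327 CPM in immature or mature B-like cells, and Ms4a3 goes from 1410 CPM in cluster 18 to 9.16 CPM or less in the 3 mature neutrophil-like clusters.

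A UMI of Ms4a3 was found in 465 of 474 progenitor-like cells (98.1%, and 59.8% after thinning), and in 54.3% of granule-making neutrophil-like cells (9.83% after thinning). Erythroid-like cells had 1.40%, and 0.402% after thinning. All 5 azurophil granule genes were called in the progenitor-like class, with a median log2 ratio of 5.97 against -0.42 over all genes, but all 5 had also named the class. Elane, the neutrophil elastase, stood 245 times above other cells (234 to 257), Prtn3, proteinase 3, 94.0 times (91.5 to 96.7), Mpo, myeloperoxidase, 62.7 times (60.9 to 64.5) and Ctsg, cathepsin G, 55.1 times (52.6 to 57.7). None of the 5 cell-cycle genes described as partners of Ms4a3 (Cdkn3, Cdk2, Cdk1, Ccna2 and Ccne1) was called there, and their median log2 ratio was -0.01. At the limit of 5% mitochondrial UMIs the ratio of Ms4a3 was 18.2 (17.2 to 19.2).

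In basophil-like cells Ms4a2 and Ms4a3 were seen together in 19 of 65 cells, 35 had Ms4a2 alone, 0 had Ms4a3 alone and 11 had neither.

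Ms4a4b was highest in NK and T cell-like cells. NK cell-like cells had 916 CPM (816 to 1026) and T cell-like cells 822 CPM (766 to 881), and the interval of their ratio, 0.974 to 1.27, held 1. The next class in the order, classical monocyte-like cells, had 24.9 CPM (20.7 to 29.7), 32.99 times below the T cell-like level. A UMI was found in 73 of 85 NK cell-like cells (85.9%, and 54.8% after thinning) and in 167 of 206 T cell-like cells (81.1%, and 44.3% after thinning). In erythroid-like cells the share was 0.533%, and 0.134% after thinning.

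Ms4a6b was called in T cell-like cells as well, at 307 CPM (273 to 344), 12.3 times other cells (10.8 to 13.9), and was at 94.1 CPM (63.9 to 134) in NK cell-like cells. Both genes together had a UMI in 112 of 206 T cell-like cells and in 21 of 85 NK cell-like cells. Ms4a4b alone was found in 55 T cell-like and 52 NK cell-like cells, and Ms4a6b alone in 14 and 1. Taken as pooled classes, T cell-like and NK cell-like cells thus did not differ in Ms4a4b beyond counting error. Their Ms4a6b intervals did not overlap, at median depths of 4108 and 3496 UMIs.

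The T cell-like clusters differed among themselves. In cluster 11.3, led by Cd8b1 and Cd8a, Ms4a4b was at 1039 CPM (898 to 1195) and Ms4a6b at 631 CPM (523 to 755). In cluster 11.0, led by Klrc1 and Trdc, Ms4a4b was at 870 CPM (793 to 952) and Ms4a6b at 188 CPM (153 to 228). This cluster, 94 of the 206 T cell-like cells, had 6 NK cell markers raised beside 7 T cell markers. The pooled T cell-like class therefore holds many cells with NK cell markers. Cluster 11.2, led by Icos and by Foxp3, the gene of regulatory T cells, had the lowest Ms4a4b of the 4, 358 CPM (271 to 464), with Ms4a6b at 314 CPM (233 to 415). Cluster 11.4, led by Cd3g and Bcl11b, had 899 CPM (705 to 1131) of Ms4a4b and 333 CPM (219 to 484) of Ms4a6b. Ms4a6b was therefore higher in the Cd8b1 cluster than in any of the other 3, and Ms4a4b lower in the Foxp3 cluster, with intervals that did not overlap.

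All 11 T and NK surface genes were called in T cell-like cells, with a median log2 ratio of 6.26 against 0.12 over all genes, and 6 of 11 in NK cell-like cells, with 2.52 against 0.37. Of the 11, 5 had served as markers. Il2rb, an interleukin-2 and interleukin-15 receptor chain, stood 124 times above other cells in NK cell-like cells (112 to 137), and Klrk1, the receptor NKG2D, 78.6 times (63.9 to 96.0). The other genes called in NK cell-like cells were Cd2, Cd7 and the T cell markers Cd3g and Cd28, and Cd4 had 0 UMIs there. The NK cell-like cluster had 3 T cell markers raised beside 7 NK cell markers, so it was not free of T cell transcripts. At the limit of 5% mitochondrial UMIs, 16 T cell-like cells were left and no NK cell-like class was named. Ms4a6b was then at 3.38 times other cells (1.84 to 5.69), which ended its call, and Ms4a4b at 32.9 times (24.2 to 43.9).

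The monocyte genes Ms4a4c, Ms4a6b, Ms4a6c and Ms4a6d were high together in classical monocyte-like cells. Their ratios to all other cells were 20.6 for Ms4a4c (18.8 to 22.5), 10.9 for Ms4a6b (10.0 to 11.9), 29.2 for Ms4a6c (27.8 to 30.8) and 23.1 for Ms4a6d (18.97 to 28.2). Ms4a6c had a UMI in 455 of 462 of these cells (98.5%, and 58.9% after thinning), against 1.60% of erythroid-like cells (0.201% after thinning). Ms4a6d, read from 439 UMIs in all, had a UMI in 162 (35.1%, and 7.17% after thinning), against 0.133% of erythroid-like cells. All 4 genes were seen in 120 cells, 3 of them in 205, 2 in 99, 1 in 35 and none in 3.

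Ms4a6c was ordered from classical monocyte-like cells (913 CPM, 886 to 940) through cluster 21 (738 CPM, 680 to 800) to cluster 31, macrophage-like and non-classical monocyte-like cells, at 421, 409 and 395 CPM. The last 3 did not differ beyond counting error. Cluster 21 (101 cells) was led by Cd209a and class II genes such as H2-Eb1 and stayed unnamed because monocyte and dendritic markers conflicted. Cluster 31 (32 cells) was led by Ace and Eno3 and tied between monocyte and macrophage markers. In cluster 21, 5 of the 9 genes were called (Ms4a4c, Ms4a6b, Ms4a6c, Ms4a6d and Ms4a7), against 4.13% of all genes. In cluster 31, 4 were called (the same without Ms4a7), against 1.09%.

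Ms4a6c was called in no progenitor class, but its level differed between the clusters within them. Over all kept cells it was at 91.4 CPM. Stem or early progenitor-like cells had 177 CPM (158 to 198), and most of it came from a cluster of 68 cells led by Hmga2, Cd34 and Flt3, with 224 CPM (200 to 251). A cluster of 33 cells led by Myct1 and the stem-cell genes Procr, Hlf and Mecom had 19.7 CPM (8.51 to 38.9). Plasmacytoid dendritic-like cells split likewise, with 246 CPM (192 to 310) in cluster 15.2 and 19.4 CPM (7.78 to 39.9) in cluster 15.1. Granulocyte-monocyte progenitor-like cells had 93.0 CPM (83.2 to 103) in cluster 18 and 4.71 CPM (3.02 to 7.003) in cluster 12. In each of these 3 classes the intervals of the 2 clusters given did not overlap.

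Ms4a4c reached its highest level in cluster 21, 302 CPM (265 to 343), and was at 250 CPM (236 to 264) in classical monocyte-like cells and 172 CPM (136 to 213) in cluster 31. It was also present in B cells. Immature or mature B-like cells had 81.7 CPM (72.6 to 91.6), with a UMI in 19.5% of cells (7.43% after thinning), against 0.3329% of erythroid-like cells (0.0671% after thinning). Of the 1027 cells, 178 had both Ms4a1 and Ms4a4c and 22 had Ms4a4c alone. Non-classical monocyte-like cells (68.1 CPM) and macrophage-like cells (63.0 CPM) did not differ from the B-like level beyond counting error.

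Ms4a6b was ordered from T cell-like cells (307 CPM) through cluster 21 (227 CPM, 195 to 262) and classical monocyte-like cells (188 CPM, 176 to 200) to cluster 31, macrophage-like and non-classical monocyte-like cells, all between 122 and 123 CPM. It was the member spread over most compartments: 45.3% of its 2086 UMIs lay in monocyte-like cells, 15.8% in T and NK cell-like cells and 12.7% in B-lineage classes.

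Ms4a6d had 70.2 CPM (53.0 to 91.2) in cluster 21, 68.1 CPM (48.7 to 92.8) in macrophage-like cells, 55.9 CPM (49.5 to 62.9) in classical monocyte-like cells and 42.4 CPM (25.9 to 65.4) in cluster 31. No neighbours in that order differed beyond counting error. The next unit, osteoclast-like cells, had 7.91 CPM (2.57 to 18.5). Non-classical monocyte-like cells had 0 UMIs, which allows up to 20.4 CPM.

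Ms4a7 was highest in macrophage-like cells. Macrophage-like cells had 410 CPM (360 to 466), 217 times other cells (175 to 269), and held 241 of its 377 UMIs (63.9%). Cluster 21 followed with 30.1 CPM (19.3 to 44.8), a level 13.6 times lower (8.95 to 21.7), and osteoclast-like cells with 15.8 CPM (7.59 to 29.1). Classical monocyte-like cells had 5.67 CPM (3.77 to 8.19) and non-classical monocyte-like cells 0 UMIs, which again allows up to 20.4 CPM. Erythroid-like cells had 0.746 CPM (0.322 to 1.47). Between macrophage-like and classical monocyte-like cells Ms4a6c had the opposite order, with 409 and 913 CPM.

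**Figure D3:**
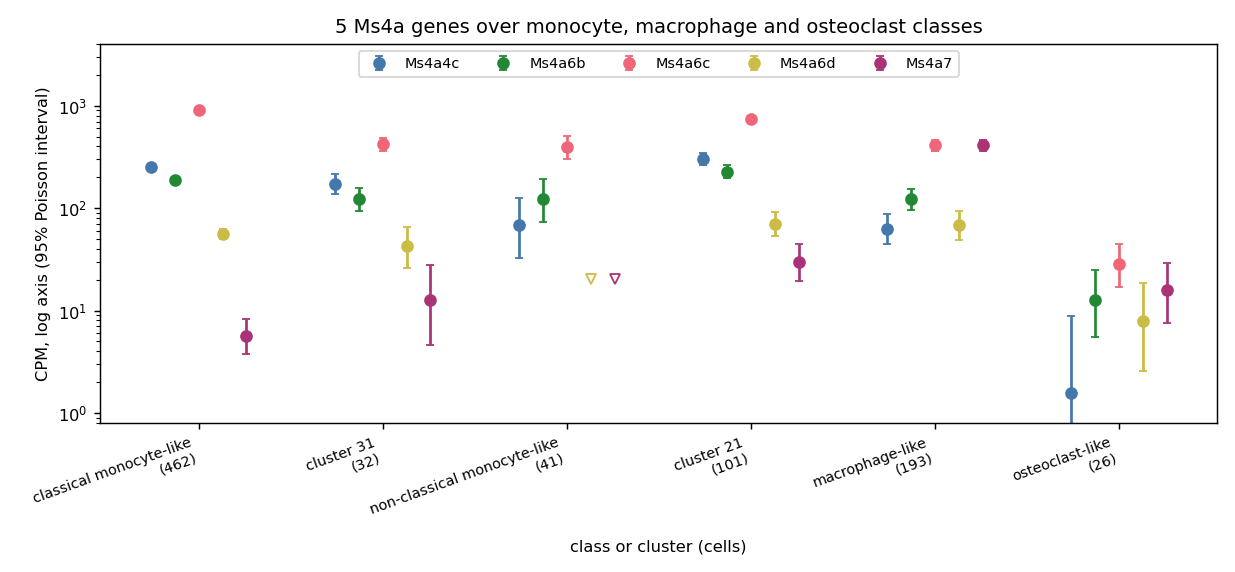
CPM of 5 Ms4a genes on a log axis, with 95% Poisson intervals, over classical monocyte-like cells, cluster 31, non-classical monocyte-like cells, cluster 21, macrophage-like and osteoclast-like cells. Open triangles mark 0 UMIs, drawn at the 3-count limit of 20.4 CPM. Ms4a7 lies at 410 CPM in macrophage-like cells and at or below 30.1 CPM elsewhere.

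The macrophage-like cells were shallow, with a median of 953 UMIs, so shares of cells understate the genes there. A UMI of Ms4a7 was found in 88 of 193 (45.6%, and 29.0% after thinning), against 0.466% of erythroid-like cells. Of the 193 cells, 44 had both Ms4a7 and Ms4a6c, 44 had Ms4a7 alone and 19 had Ms4a6c alone. The calls of Ms4a6b and Ms4a6c in this class lay just above the threshold, at ratios of 4.37 (3.40 to 5.53) and 4.602 (4.03 to 5.24). Leaving the 50 most abundant genes out of the totals gave 3.45 and 3.64, and a coarser clustering at resolution 0.5 gave 2.23 and 2.32, which ended both calls. So did the limit of 5% mitochondrial UMIs, with 3.04 and 2.61 in 84 cells, whereas the limit of 20% gave 6.55 and 7.38. In non-classical monocyte-like cells the same ratios were 4.28 and 4.35, and 3.38 and 3.44 without those 50 genes, which ended both calls there too. Without them the median log2 ratio of all genes in macrophage-like cells moved from 0.18 to -0.16, and that of Ms4a6b from 2.13 to 1.79. With at least 1500 UMIs per barcode the ratio of Ms4a7 was 71.0 (56.4 to 89.7), in a class of 187 cells. Given the median of 953 UMIs in the main class, many of those cells must come from outside it. Ms4a7 was at 112 CPM and Ms4a6c at 564 CPM there, against 410 and 409 CPM in the main class. Resolution 0.5 gave 113 in a class of 270 cells, and a clustering on 1000 variable genes 115 in a class of 339 cells.

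Of 10 measured genes for macrophage receptors and their partners, 9 were called in macrophage-like cells, with a median log2 ratio of 7.79 against 0.18 over all genes. Mertk, a receptor for apoptotic cells, stood 474 times above other cells (300 to 776), and the complement genes C1qc, C1qa and C1qb at 392, 365 and 349 times. Of these 10, 5 had served as markers, the complement genes among them. The 4-pass genes Tmem176a and Tmem176b, related in fold to the family, were called there too, at 29.7 times (26.6 to 33) and 24.3 times (21.6 to 27.3). In classical monocyte-like cells 5 of 7 monocyte receptors were called, with a median log2 ratio of 3.52 against -0.02. They were led by Ccr2, the receptor for monocyte emigration from marrow, at 28.3 times (26.7 to 29.9) and Fcgr1 at 18.2 times (14.1 to 23.5). Of the 7, 3 had served as markers of this class, Ccr2 among them.

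The Ms4a4 pair differed in cell type, whereas the Ms4a6 pair shared the monocyte and macrophage classes and differed in T cell-like cells. Over the 44 clusters of at least 20 cells, which share 1 library and 1 set of totals, Ms4a4b was high in the T and NK cell-like clusters. Ms4a4c was high in the classical monocyte-like cluster and in clusters 21 and 31. It was lower in immature or mature B-like cells (81.7 CPM) and non-classical monocyte-like cells (68.1 CPM). In T cell-like cells Ms4a4c was at 23.7 CPM (15.01 to 35.5) beside 822 CPM of Ms4a4b, and in classical monocyte-like cells Ms4a4b was at 24.9 CPM beside 250 CPM of Ms4a4c. These lower values are the ones that shared reads would touch. Ms4a6b and Ms4a6c were both high in the monocyte clusters, with a Pearson r of log2(CPM + 10) of 0.624 over the 44 clusters, but T cell-like cells had 13.4 CPM of Ms4a6c (7.13 to 22.9) beside 307 CPM of Ms4a6b. For the Ms4a4 pair r was 0.364. Members outside the pairs were closer: Ms4a6b had r of 0.763 with Ms4a4b and 0.758 with Ms4a4c, and Ms4a6c had 0.734 with Ms4a4c.

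**Figure D4:**
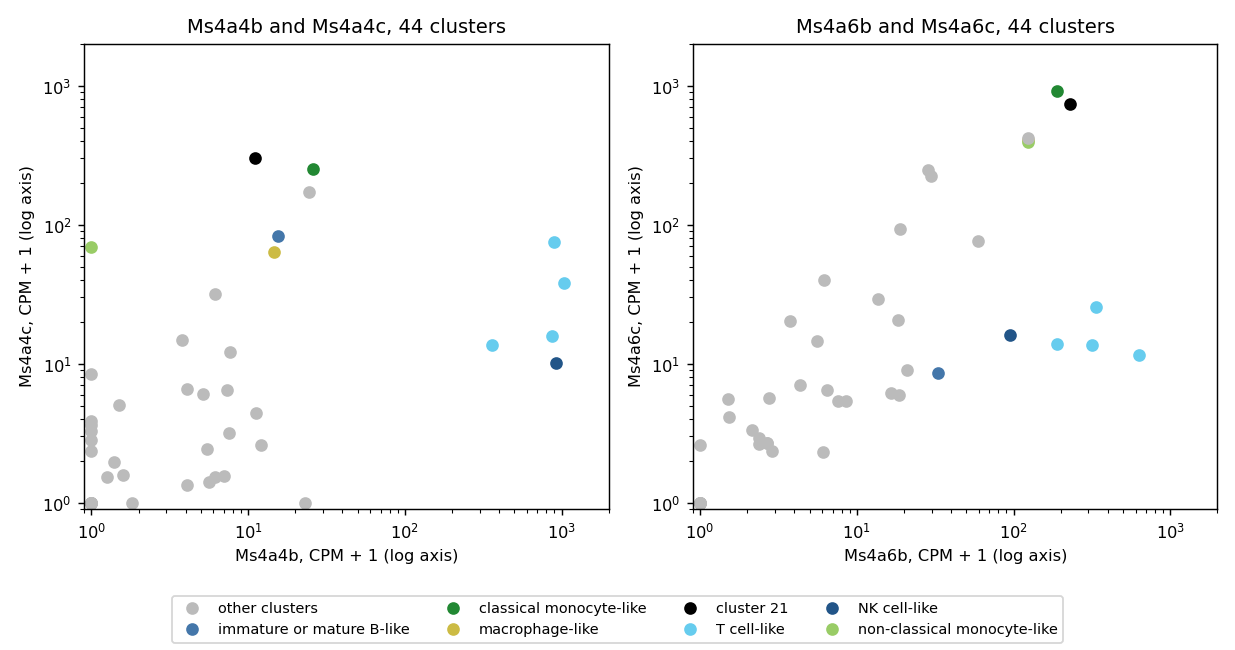
CPM + 1 of Ms4a4b against Ms4a4c (left) and of Ms4a6b against Ms4a6c (right) on log axes, with 1 point for each of 44 clusters of at least 20 cells, coloured by class. T and NK cell-like clusters lie to the right in the left panel, and the classical monocyte-like cluster and cluster 21 lie toward the top in both. In the right panel T cell-like clusters reach furthest right. The NK cell-like cluster, at 94.1 CPM of Ms4a6b, lies left of the monocyte clusters and cluster 21 there. The points of cluster 31, macrophage-like and non-classical monocyte-like cells overlap in the right panel.

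Along the chromosome the compartment with the largest share of a gene's UMIs changed several times. It was the same for the adjacent members Ms4a6c, Ms4a6b and Ms4a6d. From Ms4a1 to Ms4a3, the largest share of each gene's UMIs lay in the B-lineage classes (88.3% for Ms4a1), macrophage-like cells (63.9% for Ms4a7), monocyte-like cells (60.6% for Ms4a4c), T and NK cell-like cells (74.5% for Ms4a4b) and monocyte-like cells again (69.0% for Ms4a6c, 45.3% for Ms4a6b and 62.9% for Ms4a6d). Basophil-like cells followed with 81.7% for Ms4a2, and the progenitor and neutrophil classes with 97.5% for Ms4a3. Such a share grows with the number of cells in a compartment and is not an order of levels. By level Ms4a6b was higher in T cell-like cells (307 CPM) than in classical monocyte-like cells (188 CPM). Ms4a6d was at 70.2 CPM in cluster 21, 68.1 CPM in macrophage-like cells and 55.9 CPM in classical monocyte-like cells.

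**Figure D5:**
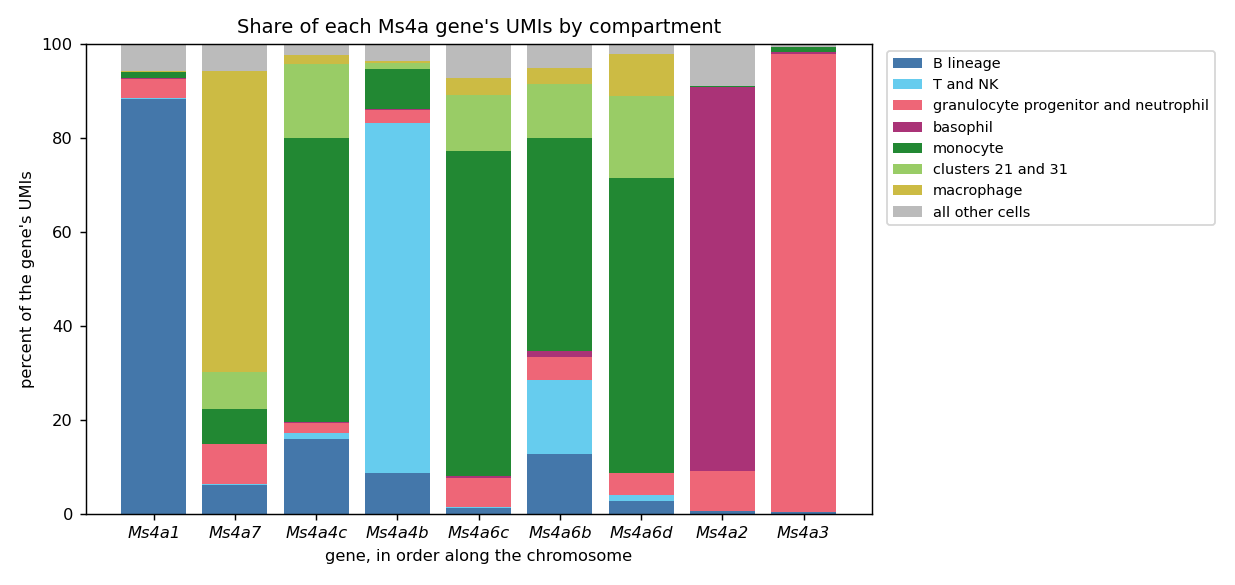
Percent of each gene's UMIs (y axis) in 7 compartments and in all other cells, with the 9 genes in their order along the chromosome (x axis). Ms4a4b, with 74.5% of its UMIs in T and NK cell-like cells, sits between Ms4a4c and Ms4a6c, which have 60.6% and 69.0% in monocyte-like cells.

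The genes whose pattern over the 44 clusters was most like each member were named by Pearson r of log2(CPM + 10). For Ms4a1 they were Fcmr (0.907), Scd1 (0.889) and Srpk3 (0.887). For Ms4a2 they were Csrp3 (0.981), Cpa3 (0.966) and Gzmc (0.932), and for Ms4a3 Prss57 (0.897), Elane (0.852) and 1700020L24Rik (0.840). Ms4a4b was most like Sidt1 (0.957), Txk (0.955) and Cd247 (0.955), of which Txk and Cd247 act in T-cell receptor signalling. Ms4a4c was most like Cd86 (0.815), Naaa (0.804) and Ctsc (0.793), and Ms4a6c like Cx3cr1 (0.869) and Ctsc (0.848). For Ms4a6b they were Ifi213 (0.878), Lpxn (0.852) and Irf2bpl (0.849), for Ms4a6d Msr1 (0.944), Ccl2 (0.912) and 0610040J01Rik (0.886), and for Ms4a7 Adap2 (0.951), Mrc1 (0.935) and Nr1h3 (0.935). Among the members themselves the highest values were 0.767 for Ms4a6d with Ms4a7 and 0.763 for Ms4a4b with Ms4a6b.

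Of the 10 other Ms4a genes in the matrix, 1 had at least 20 UMIs. Ms4a8a had 272 UMIs, 230 of them in classical monocyte-like cells, where it was at 46.6 CPM (40.8 to 53.0) and 74.7 times other cells (53.6 to 107). It was also called in clusters 21 and 31, at 21.3 and 14.8 CPM. Ms4a4a, Ms4a4d and Ms4a14 had 14, 8 and 5 UMIs, and Ms4a5, Ms4a10, Ms4a12, Ms4a13, Ms4a15 and Ms4a18 had 0.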

How the data were processed

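Per the submitters' processing notes, the authors used Cell Ranger 3.1.0, Seurat 3 and mm10. They deposited whole-number UMI counts per gene and barcode, not normalized, in 1 matrix for 4 sample records with 1 barcode suffix, so it was treated as 1 library. Annotation version and multi-mapped read handling are not stated.

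The 9 genes and the comparison lists were chosen with earlier results of these data known. Barcodes with fewer than 200 genes (1335) or over 10% mitochondrial UMIs (2672) were left out, then 522 of 11007 (4.74%) called as doublets by Scrublet. Clustering without any Ms4a gene (scanpy 1.11.5, leidenalg 0.10.2, 2000 variable genes, 30 components, 15 neighbours, resolution 1.0, Python 3.11.15) gave 46 clusters, 3 of the first ones being split further. A cluster was named from markers at least 2 times higher than in other cells and present in at least 10% of its cells, with at least 3 raised. The naming rule was set after clusters had been seen, so classes are rebuilt names. UMIs were summed per class. Intervals are exact (Poisson, conditional binomial, Clopper-Pearson) at 95%, and 3 counts served as the limit for a count of 0. Each cell was also thinned to 1000 UMIs to compare shares. The calling step was tested on simulated data. Genes named are the 9 members, the leading called genes of each list and the 3 genes with the highest Pearson r, of which 1 is not reported here. Alternatives changed the mitochondrial limit, UMI minimum, doublets, resolution, variable genes, totals, fold and thinning depth.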

Additional observations from a re-analysis of the deposited data

Results flagged for a closer look

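Barcodes outside the analysed cells also held UMIs of the 9 genes. The 2672 barcodes with over 10% mitochondrial UMIs held 3692 UMIs of Ms4a1, at 466 CPM and in 808 barcodes, against 6542 UMIs in the kept cells. They held 277 UMIs of Ms4a6c, 254 of Ms4a4b, 236 of Ms4a6b, 202 of Ms4a4c and 175 of Ms4a3. Ms4a7 had 124 there, Ms4a6d 24 and Ms4a2 13. The 522 barcodes called as doublets held 600 UMIs of Ms4a1, 503 of Ms4a6c, 368 of Ms4a3, 204 of Ms4a4b, 186 of Ms4a6b and 141 of Ms4a4c. Ms4a2 had 70 there, Ms4a6d 34 and Ms4a7 8. No control barcodes exist for these counts. They were set against the limit of 3 counts, which is low for sets of this size, so passing it says little. As rates, Ms4a1 and Ms4a6c were at 99.2 and 83.2 CPM in the doublets, against 90.4 and 91.4 CPM in kept cells. In the high-mitochondrial barcodes Ms4a7 was at 15.7 CPM and Ms4a6c at 35.0 CPM, against 5.21 and 91.4 CPM in kept cells. The 1335 barcodes with fewer than 200 genes had 3.79 CPM of Ms4a1.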

How the results depend on the processing

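Over 10 settings that recomputed the levels, 7 to 9 of the 9 genes had the same highest named class of at least 20 cells. At 5% mitochondrial UMIs both Ms4a4b and Ms4a6b moved to classical monocyte-like cells. The T cell-like class, with 16 cells, was not counted there: it had 285 CPM of Ms4a4b, and 73.9 CPM of Ms4a6b against 175 CPM in classical monocyte-like cells. With doublets kept, Ms4a4c and Ms4a6d were highest in a conventional dendritic-like class. Ms4a6d was highest in classical monocyte-like cells at a minimum of 1500 UMIs and at resolution 0.5. The number of gene and class pairs called was 16, and 12 to 23 over the alternatives. At 5% mitochondrial UMIs 16 were called but only 10 were shared, with Ms4a2 gained in T cell-like and osteoblast-like cells, and at resolution 0.5 16 were called and 12 shared. None of 89 log2 ratios changed sign, and the lowest was 1.76. Each was taken in the class where the gene was highest, so a change of sign was unlikely. Of the 89, 36 moved outside the main interval, the largest move being 1.99 for Ms4a1 at 5% mitochondrial UMIs. Thinned shares moved with the depth in 16 of 18 cases. With a pseudocount of 1, 14 of 27 most similar genes were kept. Leaving out clusters 19, 22 and 30 was chosen after seeing the data. No paired analysis was possible because all 4 records lie in 1 matrix, and for the same reason no replicate could be left out.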
